A study of Sus scrofa with 21 samples.

Results

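MUC20 and BSG are membrane glycoprotein genes that were read here in the uterine endometrium of Large White sows, in early pregnancy and in non-pregnant animals. Every probe whose RefSeq accession belongs to either pig gene was taken. There were 3 such probes, A_72_P633802 and A_72_P440416 for MUC20 (NM_001113440) and A_72_P050616 for BSG (NM_001123086), for 2 of the 2389 genes that could be named on the array. All 3 were well above background on all 21 arrays. The genes were chosen by earlier results of these same arrays, and which comparisons chose them is not stated. Those in which a gene passed the threshold are treated as the ones it was chosen by: for MUC20 day 13 attachment sites over non-pregnant sows, and for both genes day 24 over days 13 and 18 at attachment sites. They are given as a description, with no test, and the p-values of the other comparisons may not be independent of the choice either.

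The series asked which genes differ in the uterine lining while pig conceptuses implant. It held 21 single-colour Agilent arrays in 7 groups of 3. On days 13, 18 and 24 after insemination, 3 pregnant sows per day were sampled both where a conceptus had attached and between such places, at inter-sites. The non-pregnant group was 3 sows that received inactivated sperm from the same boar as the pregnant sows and were sampled on day 13. No non-pregnant animal was sampled on day 18 or 24, so day and stage of pregnancy cannot be told apart there. Which arrays came from the same sow is not given in the labels. The p-values measure the spread between arrays, and attachment sites and inter-sites of a day come from the same sows. Whole pieces of endometrium were used, in which more cells of a type and more RNA per cell cannot be told apart.

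MUC20 is a membrane-bound mucin of epithelial surfaces. In human cells its protein has been found to associate with MET, the receptor of hepatocyte growth factor, and to dampen signalling through the adaptor GRB2. BSG encodes basigin, also called CD147 or EMMPRIN, an immunoglobulin-family protein that carries the lactate transporter SLC16A1 to the cell surface. Basigin also binds cyclophilin A and induces matrix metalloproteinases in neighbouring fibroblasts, and female mice that lack Bsg are mostly infertile, with failed implantation. Cell-surface mucins of the uterine epithelium are known as a barrier that the conceptus meets when it attaches. In the table of pig RefSeq genes of assembly Sscrofa11.1, MUC20 lies between MUC4, another membrane mucin, and RUBCN, and BSG lies between HCN2 and GZMM.

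A level is a probe's processed signal over the 75th percentile of its array, on the log2 scale, so a level of 0 is a signal equal to that percentile. A difference is a log2 difference between group means with its standard error (SE), from 1 limma fit of the 7 group means to 30091 probes. Adjusted p-values are Benjamini-Hochberg values over those probes, with a threshold of 0.05. On an array, 62.3% to 77.1% of all probes were well above background, the 75th percentile lay between 354 and 854 units of processed signal, and no spot was saturated. A few arrays stood apart from their groups. Day 24 inter-site replicate 3 correlated at r = 0.942 with the other arrays of its group and at 0.988 with non-pregnant replicate 3, which in turn correlated at 0.946 to 0.947 with its own group. Day 13 inter-site replicate 1 correlated at 0.934 to 0.943 with its own group and at 0.970 with day 24 inter-site replicate 3. The values that these arrays move most are given with and without them.

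MUC20 was high on day 24 at attachment sites, and also high in the non-pregnant endometrium. It was low at the attachment sites of day 13 and at both site types of day 18. With probe A_72_P633802, the level averaged 3.09 ± 0.57 at day 24 attachment sites, 1.92 ± 1.38 at day 24 inter-sites, 1.24 ± 1.02 in non-pregnant sows, -0.43 ± 1.47 at day 13 inter-sites, -0.48 ± 0.70 at day 18 attachment sites, -1.16 ± 0.33 at day 18 inter-sites and -1.61 ± 0.11 at day 13 attachment sites (SD, n = 3 each). Every neighbouring pair in this order overlapped in its arrays. The lowest and highest of the 21 arrays were 5.43 apart on the log2 scale.

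The second MUC20 probe, A_72_P440416, read a wider range of 7.0 over the 21 arrays. It averaged 2.85 ± 0.58 at day 24 attachment sites, 1.57 ± 1.56 at day 24 inter-sites, 0.95 ± 1.03 in non-pregnant sows, -1.29 ± 1.06 at day 18 attachment sites, -1.54 ± 2.21 at day 13 inter-sites, -2.51 ± 0.62 at day 18 inter-sites and -3.22 ± 0.23 at day 13 attachment sites (SD, n = 3 each). Here the non-pregnant arrays did not overlap those of the next group, the day 18 attachment sites, and all other neighbours overlapped. For that pair of groups the share of all probes without overlap was not counted. The 2 probes gave the same sign in 13 of 13 contrasts and correlated at r = 0.99 over the 21 arrays. Their agreement is a description of 2 readings of the same RNA.

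BSG varied far less, over a range of 1.75. Its level averaged 2.55 ± 0.16 at day 24 attachment sites, 2.20 ± 0.33 at day 24 inter-sites, 1.76 ± 0.05 in non-pregnant sows, 1.51 ± 0.31 at day 13 attachment sites, 1.35 ± 0.33 at day 18 attachment sites, 1.34 ± 0.24 at day 18 inter-sites and 1.33 ± 0.21 at day 13 inter-sites (SD, n = 3 each). The day 24 inter-sites did not overlap the non-pregnant group, and every other neighbouring pair did. The share of all probes without overlap was not counted for that pair. BSG was thus highest on day 24 like MUC20, but lay within a narrow band in the other 5 groups.

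**Figure D1:**
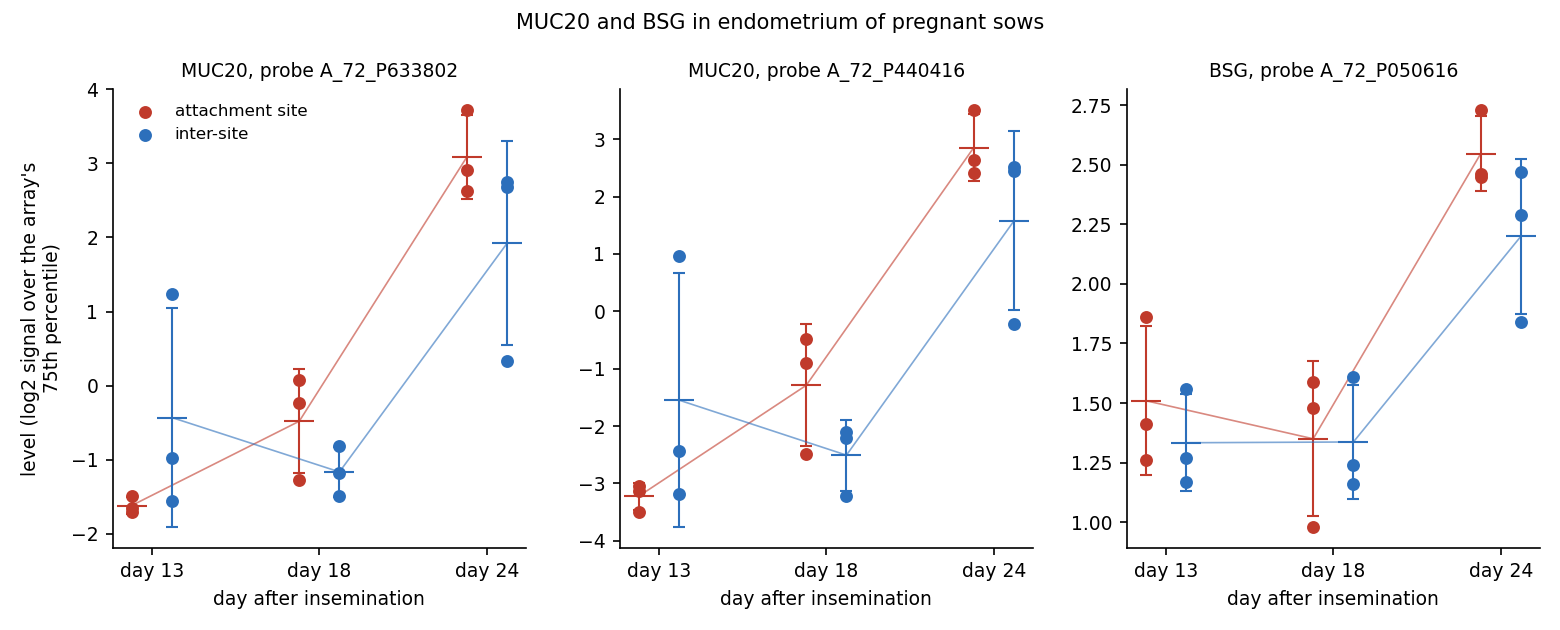
Levels of both MUC20 probes and the BSG probe (log2 signal over the array's 75th percentile, y axis) on days 13, 18 and 24 (x axis), with 1 point per array, attachment sites in red and inter-sites in blue, bars for the mean ± SD of 3 arrays, and thin lines that join means of different sows. All 3 day 24 arrays lie above all 3 day 18 arrays at both site types in each panel.

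Of the steps between days, that from day 18 to day 24 was the larger for both genes at both site types. At attachment sites, MUC20 probe A_72_P633802 read 2.62, 2.91 and 3.72 on day 24, against 0.07, -0.24 and -1.27 on day 18. All day 24 arrays lay above all day 18 arrays, as they did for 15.2% of all probes. The difference was 3.57 (SE 0.71), which is 11.8-fold, and it was 4.14 (SE 0.91) with the second probe. In processed signal, A_72_P633802 gave 2782, 3158 and 6538 units on day 24 and 404, 300 and 235 units on day 18.

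BSG at attachment sites read 2.45, 2.46 and 2.73 on day 24, against 1.59, 1.48 and 0.98 on day 18, again without overlap. The difference was 1.20 (SE 0.22), a 2.29-fold higher level on day 24. In this comparison 5.62% of all probes passed the threshold in either direction and 3.85% were called higher. All 3 probes of the 2 genes were among them, which is part of how they were chosen. These shares rested on single arrays: 1691 probes were called with all arrays, but 261 without day 24 attachment site replicate 2, 309 without replicate 3 and 1069 without day 18 attachment site replicate 3. On the slide that held both groups, day 24 minus day 18 was 4.47 for MUC20 and 1.5 for BSG. With slide as a block, the differences were 3.67 for MUC20 and 1.17 for BSG, and neither passed the threshold any longer. MUC20 also lost its call without day 24 attachment site replicate 3, at a difference of 3.25. BSG lost it with normexp background correction, at 0.94, and when the compared groups were fitted alone.

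The same step was read at inter-sites. MUC20 probe A_72_P633802 read 0.33, 2.75 and 2.68 at day 24 inter-sites, against -1.18, -0.82 and -1.49 at day 18 inter-sites. All day 24 arrays lay above all day 18 arrays, although replicate 1 of day 24 was well below the other two. The difference was 3.08 (SE 0.71), 8.47-fold, with an adjusted p of 0.0798 in limma. The second probe gave 4.08 (SE 0.91) with an adjusted p of 0.0761.

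For BSG the inter-sites read 2.47, 2.29 and 1.84 on day 24, against 1.61, 1.24 and 1.16 on day 18. These groups did not overlap either, and the difference was 0.86 (SE 0.22), 1.82-fold, with an adjusted p of 0.104 in limma. None of the 3 probes passed the threshold at inter-sites, where 0.143% of all probes did. All arrays of day 24 lay above all of day 18 for 11.5% of all probes. Within the slides that held both groups, day 24 minus day 18 was 3.57 and 1.51 for MUC20, and 1.05 and 0.86 for BSG. With slide as a block, the values were 2.88 for MUC20 (adjusted p = 0.325) and 0.94 for BSG (adjusted p = 0.307).

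The MUC20 value at inter-sites turned on single arrays. Without day 24 inter-site replicate 1 the difference was 3.88, with an adjusted p of 0.0452 in limma. Without replicate 3, the array that resembled non-pregnant replicate 3, it was 2.70, with an adjusted p of 0.167. BSG without that array gave 1.04, with an adjusted p of 0.079. The step was tested for a difference between site types as the change of the site difference from day 18 to day 24. That change was 0.48 (SE 1.0) for MUC20 and 0.33 (SE 0.31) for BSG, both with an adjusted p of 1, and 0.00997% of all probes passed this test. Its 95% interval ran from -1.63 to 2.59 for MUC20 and from -0.33 to 1.0 for BSG.

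From day 13 to day 18 neither gene passed the threshold at either site type. MUC20 at attachment sites read 0.07, -0.24 and -1.27 on day 18, against -1.49, -1.65 and -1.71 on day 13, with no overlap. The difference was 1.13 (SE 0.71) and its adjusted p in limma was 0.368. For 10.8% of all probes every day 18 array lay above every day 13 array, and 1.8% passed the threshold in either direction. At inter-sites the difference was -0.74 (SE 0.71, adjusted p = 0.927), and it was 0.10 without day 13 inter-site replicate 1. BSG differed by -0.16 (SE 0.22, adjusted p = 0.710) at attachment sites and by 0.00 (SE 0.22, adjusted p = 0.999) at inter-sites, with 95% intervals from -0.63 to 0.31 and from -0.47 to 0.47. At inter-sites 0.00665% of all probes passed.

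Over the whole span, MUC20 at attachment sites was 4.70 (SE 0.71) higher on day 24 than on day 13, 26-fold, and 6.07 (SE 0.91) higher with the second probe. BSG was 1.04 (SE 0.22) higher, 2.05-fold. In this comparison 15.7% of all probes passed in either direction and 8.34% as higher, these 3 among them. Within the slides that held both groups, MUC20 was 4.11 and 4.56 higher and BSG 0.59 and 1.05 higher. BSG lost its call with normexp background correction, at 0.78. At inter-sites, day 24 exceeded day 13 by 2.35 (SE 0.71, adjusted p = 0.149) for MUC20 and by 0.87 (SE 0.22, adjusted p = 0.102) for BSG, where 0.246% of all probes passed in limma. Only BSG was without overlap there, as were 8.66% of all probes in that direction. On the 1 slide that held both inter-site groups, day 24 minus day 13 was -0.91 for MUC20 and 1.21 for BSG. That slide held day 13 inter-site replicate 1, and without this array MUC20 differed by 3.18 over all arrays.

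**Figure D2:**
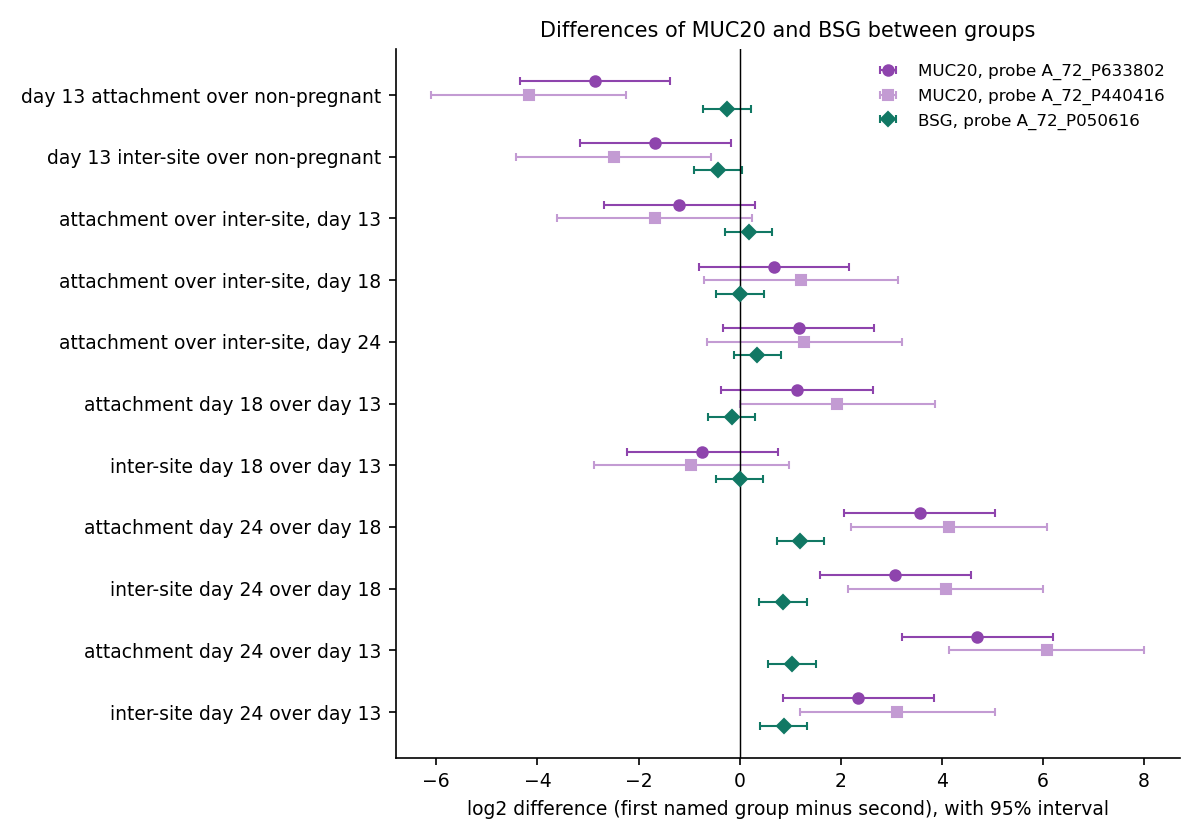
Log2 differences between group means (x axis, first named group minus second, with the 95% interval of the limma fit) for 11 comparisons (y axis) and 3 probes. Both MUC20 probes lie on the same side of 0 in every comparison, and the day 24 over day 18 differences of both genes lie above 0 at both site types.

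On day 13, pregnancy was set against the non-pregnant state. MUC20 probe A_72_P633802 read -1.49, -1.65 and -1.71 at attachment sites, against 0.22, 1.25 and 2.27 in non-pregnant sows. The attachment-site arrays lay close together and all below the non-pregnant arrays, which were spread, as 16.7% of all probes lay. The difference was -2.86 (SE 0.71), a 7.26-fold lower level at attachment sites, and the second probe gave -4.17 (SE 0.91), 18.0-fold lower. In processed signal A_72_P633802 gave 208, 155 and 161 units at attachment sites and 447, 870 and 2489 units in non-pregnant sows.

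Both MUC20 probes passed the threshold in this comparison, as did 1.78% of all probes in either direction and 0.944% as lower, and this belongs to how the gene was chosen. That was 536 probes with all arrays. It was 0 probes without non-pregnant replicate 1 (4564 at an unadjusted p under 0.05 in limma), 1 without replicate 2, and 12 to 48 without any 1 of the 3 attachment-site arrays. The call was fragile: it was lost in 14 of 17 alternatives, which included the removal of any single array of the compared groups, quantile normalization, median centring and slide as a block. The sign held in all 17, with differences between -4.17 and -2.27. Within the slides that held both groups the difference was -2.73 and -3.98, and with slide as a block it was -3.09. Without non-pregnant replicate 3 it was -2.35.

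Inter-sites of day 13 were a second contrast with the non-pregnant group, which shares its non-pregnant arrays with the first. MUC20 read 1.24, -1.56 and -0.97 at inter-sites, against 0.22, 1.25 and 2.27 in non-pregnant sows. Replicate 1 of the inter-sites lay among the non-pregnant arrays and the other two lay below them. The difference was -1.67 (SE 0.71, adjusted p = 0.234 in limma). It was -2.51 without that replicate, with an adjusted p of 0.0596, and its adjusted p was 0.045 when day 24 inter-site replicate 3 was left out too. Within the slides that held both groups the difference was -3.82 and 1.02, the second of them on the slide with inter-site replicate 1. In this comparison 0.452% of all probes passed.

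BSG on day 13 read 1.86, 1.41 and 1.26 at attachment sites, against 1.71, 1.78 and 1.81 in non-pregnant sows, and the groups overlapped. The difference was -0.25 (SE 0.22, adjusted p = 0.564 in limma), with a 95% interval from -0.72 to 0.22. At inter-sites BSG read 1.27, 1.56 and 1.17, all below the non-pregnant arrays, as for 11.9% of all probes. That difference was -0.43 (SE 0.22) with an adjusted p of 0.322. BSG thus passed the threshold at neither site type on day 13.

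**Figure D3:**
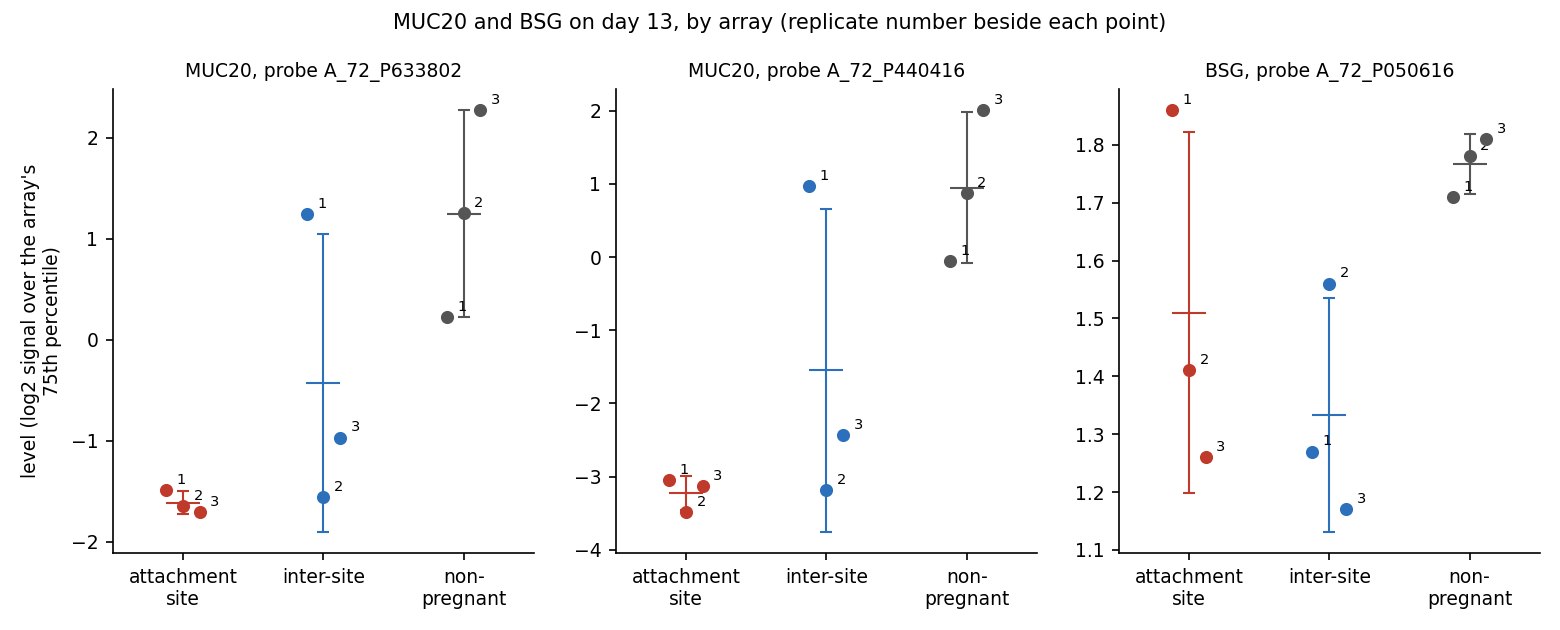
Levels of both MUC20 probes and the BSG probe (log2 signal over the array's 75th percentile, y axis) on day 13 at attachment sites, at inter-sites and in non-pregnant sows (x axis), with 1 point per array labelled by replicate number and bars for the mean ± SD of 3 arrays. MUC20 is tightly grouped and low at attachment sites, and inter-site replicate 1 lies among the non-pregnant arrays.

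Attachment sites were set against inter-sites on each day. MUC20 differed by -1.19 (SE 0.71, adjusted p = 0.587) on day 13, by 0.68 (SE 0.71, adjusted p = 0.982) on day 18 and by 1.17 (SE 0.71, adjusted p = 0.757) on day 24 in limma. Its arrays overlapped between site types on each day, and the 95% intervals ran from -2.68 to 0.30, from -0.81 to 2.17 and from -0.32 to 2.66. Differences of several-fold are thus not excluded on any of the 3 days. The sign on day 13 was opposite to that on the later days, but the size rested on single arrays. Without day 13 inter-site replicate 1 the day 13 difference was -0.35, without day 24 inter-site replicate 1 that of day 24 was 0.37, and without day 24 inter-site replicate 3 it was 1.55. The change of the site difference from day 13 to day 18 was 1.87 (SE 1.0, adjusted p = 0.599), and 0% of all probes passed that test.

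BSG differed between site types by 0.18 (SE 0.22, adjusted p = 0.772) on day 13, by 0.01 (SE 0.22, adjusted p = 0.999) on day 18 and by 0.35 (SE 0.22, adjusted p = 0.780) on day 24. The 95% intervals ran from -0.29 to 0.65, from -0.46 to 0.48 and from -0.12 to 0.82. Of all probes, 0% passed in the site comparison of day 13, 0% in that of day 18 and 0.279% in that of day 24, by limma. At an unadjusted p under 0.05 there were 2441, 1411 and 2423 probes. On slides that held both site types, MUC20 differed by -0.15 on day 13 and by 1.04 and 0.17 on day 24, and BSG by -0.30 on day 13 and by 0.89 and 0.17 on day 24. No slide held both site types of day 18.

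Over the 21 arrays the levels of MUC20 and BSG correlated at r = 0.75, and over the 7 group means at 0.92. Across deviations from the group means r was -0.03, and without the 6 arrays of day 24 it was 0.42. The arrays share groups, so these values describe the data and carry no p. Within a group, an array that was high in MUC20 was not as a rule high in BSG. At day 24 inter-sites, for example, replicate 1 was lowest in MUC20 at 0.33 and highest in BSG at 2.47.

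Other mucins were mostly not among the named and measured genes. Of 13 mucin genes listed, MUC13 and OVGP1, besides MUC20, were tested. By the 1 probe that stood for each gene, neither passed the threshold in any of the 11 comparisons. MUC13, a membrane mucin of mucosal surfaces, differed at attachment sites by -0.05 (SE 0.24) between day 24 and day 18, but its 4 probes ran from -0.05 to 2.20. The probe used was very bright on all arrays. It read 9.33 on day 24 inter-site replicate 1, whose 75th percentile was 854. It read 10.39 on day 18 attachment site replicate 2, whose 75th percentile was 354. Whether so bright a probe could show a change was not tested. OVGP1, the oviductal glycoprotein, differed by 0.07 (SE 1.70). At day 24 inter-sites OVGP1 read -1.26, -2.82 and 7.99, with the high value on replicate 3. MUC4, the neighbour of MUC20, had no probe that could be named.

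Enzymes that build mucin-type sugar chains were represented by 4 of 18 listed genes. ST3GAL1, a sialyltransferase of such chains, was 1.24 higher at attachment sites on day 24 than on day 13 (adjusted p = 0.0495 in limma). It read -4.19, -3.92 and -4.77 on day 24 and -5.76, -5.16 and -5.68 on day 13. Both groups were dim, so the size of the difference is uncertain. In that comparison 15.7% of all probes passed. ST3GAL1 was the single list member that passed in any of the day comparisons at attachment sites. With normexp background correction its adjusted p was 0.475. Between day 24 and day 18 at attachment sites ST3GAL1 differed by 0.61 (SE 0.41), ST3GAL4 by -0.14 (SE 0.25), FUT1 by -0.05 (SE 0.32) and FUT2 by 2.68 (SE 1.40). FUT1 and FUT2 encode fucosyltransferases that make H antigens. None of these differences passed the threshold.

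Of 16 genes of the MET receptor and its adaptors, 4 were tested, and none passed in any of the 11 comparisons. MET itself read -1.78, -1.38 and -1.24 at day 24 attachment sites, against -1.66, -2.84 and -2.29 on day 18. The difference was 0.80 (SE 0.58, adjusted p = 0.430 in limma), and the groups overlapped. GRB2 differed by 0.06 (SE 0.15), MAP2K1 by 0.30 (SE 0.37) and STAT3 by -0.51 (SE 0.34). On day 13, MAP2K1, a kinase of the Ras pathway, was 1.37 (SE 0.37) higher at attachment sites than in non-pregnant sows, with an adjusted p of 0.0617. The median over the 4 genes was 0.18 for day 24 over day 18 at attachment sites, beside 0.00 over all probes.

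For basigin, 2 of 12 other listed genes of its family and of the transporters it carries were tested. SLC16A1, the lactate transporter that basigin brings to the membrane, read -1.24, -0.26 and 0.38 at day 24 attachment sites, against -2.63, -0.86 and -3.52 on day 18. The groups overlapped, and the difference was 1.96 (SE 1.07) with an adjusted p of 0.278 in limma. ATP1B1, a subunit of the sodium pump, differed by 0.63 (SE 0.40, adjusted p = 0.353). At inter-sites SLC16A1 differed by 0.25 (SE 1.07) and ATP1B1 by 1.06 (SE 0.40), and neither passed.

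Basigin ligands and membrane partners were tested for 7 of 11 listed genes. LGALS3, the lectin galectin-3, was the 1 of 7 that passed for day 24 over day 18 at attachment sites, beside 5.62% of all probes. It read 6.24, 6.78 and 6.90 on day 24, against 4.90, 4.63 and 4.90 on day 18, with no overlap. The difference was 1.83 (SE 0.33, adjusted p = 0.00671 in limma), its 7 probes gave 1.73 to 1.83, and the adjusted p was 0.0719 with normexp background correction. PPIA, which encodes the soluble ligand cyclophilin A, differed by 0.37 (SE 0.21, adjusted p = 0.303) in the same comparison and was 0.81 higher on day 24 than on day 13 (adjusted p = 0.0173). SELE, the endothelial adhesion molecule E-selectin, was 2.70 higher on day 24 than on day 13 (adjusted p = 0.0261), where 15.7% of all probes passed. With normexp background correction neither passed, with adjusted p = 0.308 for PPIA and 0.256 for SELE.

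The calcium-binding ligands S100A8 and S100A9 did not pass. S100A8 differed at attachment sites by 2.58 (SE 0.99, adjusted p = 0.130) and at inter-sites by 3.71 (SE 0.99, adjusted p = 0.114) between day 24 and day 18, by limma, and S100A9 by 1.98 (SE 1.95, adjusted p = 0.570) and 3.04 (SE 1.95, adjusted p = 0.515). CAV1, the caveolar protein, differed by -0.86 (SE 0.43) and -0.70 (SE 0.43), and ITGB1, an integrin chain, by -0.33 (SE 0.43) and 0.35 (SE 0.43). The median over the 7 genes was 0.37 at attachment sites and 0.73 at inter-sites, beside 0.00 and 0.03 over all probes.

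Matrix metalloproteinases and their inhibitors were tested for 7 of 19 listed genes. For day 24 over day 18 at attachment sites 2 of the 7 passed, beside 5.62% of all probes. MMP1, the interstitial collagenase that basigin is known to induce in fibroblasts, read -3.55, -2.60 and -2.85 on day 24, against -4.83, -7.19 and -7.20 on day 18. The difference was 3.41 (SE 0.59, adjusted p = 0.00526 in limma), but only 1 of the 3 day 18 arrays was well above background. At inter-sites MMP1 read -2.87, -3.29 and -2.87 on day 24 and was not well above background on any day 18 array. There it was at least 5.43-fold higher on day 24 (adjusted p = 0.00578), a bound taken against the lowest signals measured above background. With normexp background correction MMP1 did not pass at either site type, with adjusted p = 0.364 at attachment sites and 0.858 at inter-sites.

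TIMP1, an inhibitor of these proteases, read 6.91, 7.16 and 7.09 at day 24 attachment sites, against 6.36, 6.33 and 5.05 on day 18. The difference was 1.14 (SE 0.29, adjusted p = 0.0294 in limma), and the adjusted p was 0.134 with slide as a block and 0.328 with normexp. At inter-sites TIMP1 differed by 1.21 (SE 0.29, adjusted p = 0.0836). MMP2 differed by 1.15 (SE 0.46), MMP14 by 0.56 (SE 0.66), TIMP2 by 1.37 (SE 1.15) and MMP9 by -0.07 (SE 0.46) at attachment sites, and none of these passed. The median over the 7 genes was 1.15 there, beside 0.00 over all probes.

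**Figure D4:**
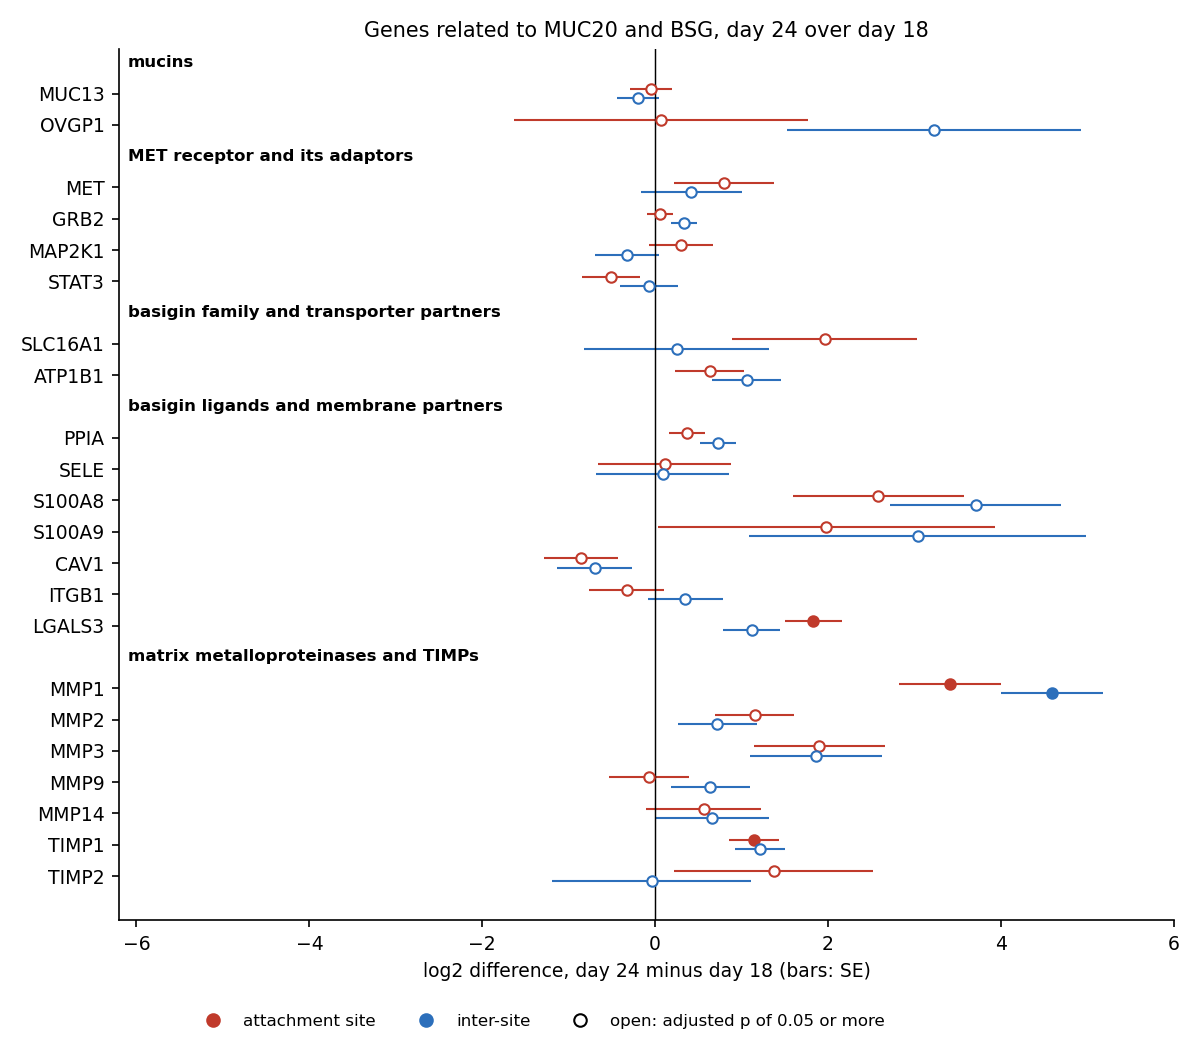
Log2 differences, day 24 minus day 18 (x axis, bars for SE), of the tested genes of 5 lists related to MUC20 or BSG (y axis), at attachment sites in red and at inter-sites in blue, with filled points for an adjusted p under 0.05. LGALS3, MMP1 and TIMP1 are filled at attachment sites and MMP1 at inter-sites, where its day 18 arrays were not well above background.

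Glycolysis and lactate handling were tested for 9 of 21 listed genes. For day 24 over day 18 at attachment sites 1 of 9 passed, PGK1, a kinase of glycolysis, at 0.66 (SE 0.19, adjusted p = 0.0492 in limma). LDHA, which makes the lactate that basigin-borne transporters move, differed by 1.24 (SE 0.42, adjusted p = 0.0871) and was 1.66 higher on day 24 than on day 13 (adjusted p = 0.0142). On day 13, PDK4, which holds pyruvate back from the mitochondrion, was 2.55 higher at attachment sites than in non-pregnant sows (adjusted p = 0.0168). None of these 3 calls held with slide as a block, where the adjusted p was 0.179 for PGK1, 0.0533 for LDHA and 0.088 for PDK4, or with normexp background correction. The median over the 9 genes was 0.02 for day 24 over day 18 at attachment sites. Of all probes 5.62% passed in that comparison and 15.7% for day 24 over day 13 at attachment sites. For day 13 attachment sites over non-pregnant sows it was 1.78%.

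Attachment ligands and integrins were tested for 9 of 20 listed genes, and 1 of 9 passed for day 24 over day 18 at attachment sites, the epithelial cadherin CDH1, at 1.76 (adjusted p = 0.0296 in limma). SPP1, the integrin ligand osteopontin, read -0.60 to 1.89 at attachment sites on day 13, 5.32 to 6.59 on day 18 and 7.38, 8.09 and 8.33 on day 24. SPP1 was 5.05 higher on day 18 than on day 13 there (adjusted p = 0.00984), a step at which MUC20 differed by 1.13 and BSG by -0.16. ITGAV was lower on day 24 than on day 13, by -1.06 (adjusted p = 0.0137). With slide as a block the adjusted p was 0.0834 for CDH1, 0.0831 for this step of SPP1 and 0.0615 for ITGAV. At attachment sites 5.62% of all probes passed for day 24 over day 18, 1.8% for day 18 over day 13 and 15.7% for day 24 over day 13.

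The summed markers of conceptus and trophoblast were, like both genes, higher on day 24 than on day 18 at attachment sites. Of 16 listed markers, 9 were measured. Their summed level, as signal over the 75th percentile, was 99.5 to 328 at day 24 attachment sites and 17.9 to 68.9 at day 18 attachment sites. It was 17.5 to 80.3 at day 24 inter-sites and 13.8 to 19.2 at day 18 inter-sites. The brightest gene weighs most in such a sum. At day 24 attachment sites that was PAG6, at 6.30, 7.94 and 8.18 on the log2 scale. PAG6 read 1.79, 5.48 and 2.12 at day 18 attachment sites. At attachment sites 3 of 9 passed for day 24 over day 18, beside 5.62% of all probes. GATA3 was 2.48 higher (adjusted p = 0.0229 in limma). CYP17A1 was at least 8.18-fold and CYP19A3 at least 6.31-fold higher, both with no day 18 array well above background. With normexp background correction 0 of 9 passed, with adjusted p = 0.0579 for GATA3, 0.22 for CYP17A1 and 0.266 for CYP19A3.

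At inter-sites 0 of 9 passed, and CYP19A3, an aromatase gene of the pig, stayed below that mark on all arrays of both days. Day 24 inter-site replicate 3 had the lowest marker sum of its group, 17.5, and a MUC20 level of 2.68. Replicate 1 had the highest BSG level, 2.47, at a sum of 20.6. In non-pregnant sows the sum was 14.6 to 14.7, while MUC20 ran from 0.22 to 2.27. There PAG6 read -6.65 to -4.02 on the log2 scale. GATA2, at 2.71 to 2.95, and CYP19A1, at 1.40 to 2.34, gave most of the sum there. A sum near 14.6 was thus reached without a conceptus. Day 24 inter-site replicate 3, with PAG6 at -4.96, is the array that stood apart and resembled non-pregnant replicate 3, at which MUC20 read 2.27. What share of the higher levels at attachment sites these markers account for was not tested.

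**Figure D5:**
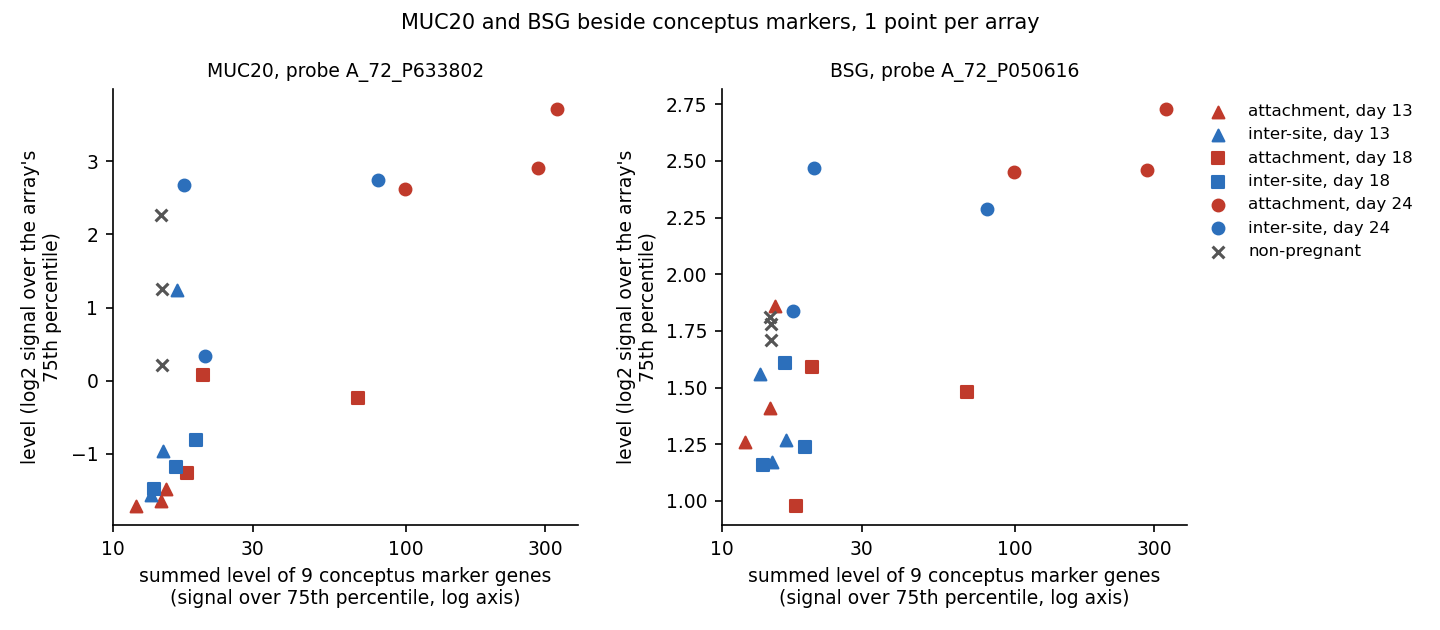
Levels of MUC20 and BSG (log2 signal over the array's 75th percentile, y axes) against the summed level of 9 conceptus marker genes (x axis, log scale), with 1 point per array, colour for the kind of site and shape for the day. Day 24 attachment sites lie far right and high, while day 24 inter-site and non-pregnant arrays with sums of 14.6 to 20.6 run from 0.22 to 2.68 in MUC20. At day 24 attachment sites most of the sum is the signal of PAG6.

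Markers of other cell types also differed between these days. Epithelial markers, 6 of 11 listed and CDH1 among them, were well above background in all groups, and their summed level was 153 to 180 at day 24 attachment sites and 67.9 to 128 at day 18 attachment sites, and 172 to 185 at day 24 inter-sites and 89.2 to 142 at day 18 inter-sites. At day 13 attachment sites, where MUC20 was lowest, the epithelial sum was 174 to 214, and it was 91.3 to 199 in non-pregnant sows. Whether epithelial content bears on the MUC20 levels was not tested. Markers of T and NK lymphocytes, 9 of 13 listed, summed to 3.44 to 3.97 at day 24 attachment sites and 6.44 to 13.0 at day 18 attachment sites. At inter-sites they summed to 3.45 to 4.97 on day 24 and 6.84 to 12.2 on day 18. The epithelial and the lymphocyte sums thus did not overlap between day 24 and day 18 at either site type, the first higher and the second lower on day 24. At attachment sites 1 of 6 epithelial genes (CDH1) and 1 of 9 lymphocyte genes (GZMB) passed, beside 5.62% of all probes. At inter-sites 0 of 6 and 0 of 9 passed, beside 0.143%. The lymphocyte sum at inter-sites weighs GZMB most. It read 1.30, 0.81 and 0.82 there on day 24 and 2.15, 1.93 and 2.88 on day 18. CD3E, CD8A and KLRK1 overlapped between these days at inter-sites. In the epithelial sum KRT8 was the brightest gene on day 24 there. KRT8 read 5.99, 5.88 and 6.57 on day 24 and 5.69, 4.61 and 4.87 on day 18. KRT8 and CDH1 did not overlap between these days at inter-sites, while EPCAM, CLDN3, CLDN4 and CLDN7 did. Smooth muscle markers varied within groups. They summed to 1330, 1230 and 35.7 on non-pregnant replicates 1, 2 and 3, where MUC20 read 0.22, 1.25 and 2.27. On day 13 they summed to 37.4, 638 and 52.1 at attachment sites and to 34.4 to 54.5 at inter-sites. What this means for the comparisons with non-pregnant sows was not tested.

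Red cell, stromal, macrophage and endothelial markers were measured more thinly. HBE1, an embryonic globin and the 1 of 8 erythroid markers measured, had a signal over the 75th percentile of 0.0791 to 0.385 at day 13 attachment sites, 13.5 to 391 at day 18 attachment sites and 87.7 to 369 at day 24 attachment sites. On the log2 scale it was 10.2 higher on day 24 than on day 13 there (adjusted p = 0.00075 in limma) and 8.0 higher on day 18 than on day 13 (adjusted p = 0.0237). Of all probes 15.7% passed in the first of these comparisons and 1.8% in the second. At inter-sites the signal of HBE1 over the 75th percentile ran from 0.186 to 20.3 on day 24 and from 0.681 to 6.2 on day 18.

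Stromal fibroblast markers, 2 of 10 listed, summed to 157 to 199 at attachment sites on day 13, 168 to 390 on day 18 and 228 to 283 on day 24. DCN gave nearly all of that sum. On the log2 scale it read 7.64, 7.30 and 7.58 on day 13 and 8.03, 8.13 and 7.81 on day 24. THY1, the other gene, added little to the sum. THY1 was 4.61 higher on the log2 scale on day 24 than on day 13 (adjusted p = 0.00166 in limma). In that comparison 15.7% of all probes passed. Macrophage markers, 4 of 7 listed, summed to 19.8 to 26.2 at day 24 attachment sites and 17.7 to 39.6 on day 18. The list was split between these days, with 2 of 4 higher on day 24 and a median difference of -0.15. The scavenger receptor CD163 was 2.48 higher (adjusted p = 0.016 in limma, where 5.62% of all probes passed) and CD14 was higher too. AIF1 and CD86 were lower on day 24 than on day 18. Endothelial markers, 3 of 7 listed, summed to 19.6 to 29.9 and 12.5 to 29.6 on those days, and none of the 3 passed in limma, with normexp or with slide as a block. These 3 sums overlapped between day 24 and day 18 at attachment sites. The part of these cells in the results was not tested.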

How the data were processed

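RNA of 21 endometrium samples was extracted with Trizol, amplified from 0.5 µg and labelled with Cy3, per the labels' protocols. Each deposited scanner file gives the intensity of every spot from Agilent Feature Extraction 10.7.3.1, per the file headers (10.7 per the submitters' processing notes), background-subtracted within each array. Other deposited columns, the software's flags for outliers and signal above background, served as filters. Its saturation flag was only counted. The authors' deposited table is on the log2 scale, with each column's median at 5.85. In it 19 of 21 columns followed their own scanner file, while day 24 inter-site replicates 2 and 3 followed each other's, and it served as an alternative only.

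Of 45220 spots per array, 43803 were not controls and gave 43603 probes. Those well above background on all 3 arrays of a group, 30091, were tested with limma 3.58.1 under R 4.3.3 (7 group means, 14 residual and 2.71 prior degrees of freedom) on log2 signal minus the 75th percentile. Genes were named by RefSeq accession: 5461 of 5779 probes with one matched a symbol. The probe with the highest mean over all arrays stood for a gene. The members, and the lists of related genes and cell markers, were chosen with earlier results of these data known. Genes of the related lists were named where they passed in the comparisons described, otherwise up to 4 per list, with others added after their values were seen. Cell markers are given as sums, with some of those that passed. Genes most like a member were the 5 highest and 3 lowest by Pearson r, of which 1 is not reported here. Normexp background correction (offset 50) used the median spot signal, since the mean signal planned for it was not used here. Other alternatives were quantile normalization, median centring, other filters on dim probes, slide as a fixed or random block over 6 slides, the replicate block, each array left out and the compared groups alone. Replicate numbers were checked by correlating deviations of same-numbered arrays, which did not settle whether such arrays share a sow. The fit was tested on simulated data. No sequence of a probe, transcript or protein was used here.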

Additional observations from a re-analysis of the deposited data

How the results depend on the processing

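Of 465 recomputed values of MUC20 and BSG, 440 kept their direction and their side of the threshold, or moved by less than the spread between replicates. The second rule was used for the comparisons the genes were chosen by, so a lost call does not show in that count. MUC20 lost its call in 14 of 17 alternatives for day 13 attachment sites over non-pregnant sows. For day 24 over day 18 at attachment sites, MUC20 lost it in 2 of 17 and BSG in 3 of 16. For day 24 over day 13 there it was 0 of 17 and 1 of 16. For MUC20 the second probe gave -4.17 for day 13 attachment sites over non-pregnant sows and 6.07 for day 24 over day 13 at attachment sites. Without both inter-site arrays that stood apart, day 13 inter-sites over non-pregnant sows gave -2.51 (adjusted p = 0.045 in limma) and day 18 over day 13 at inter-sites gave 0.10. Leaving out 1 array at a time gave -1.30 to 0.10 for that last value, 2.67 to 3.88 for day 24 over day 18 at inter-sites, and -0.31 to 0.90 for the change of the site difference from day 18 to 24. For BSG, sign changes were all of values near 0. The site difference of day 18 was -0.04 with normexp, -0.01 with quantile normalization and -0.01 in the authors' deposited table, and -0.11 to 0.20 leaving out 1 array. Day 18 over day 13 at inter-sites was -0.04 with quantile normalization, -0.01 with slide as a block, -0.04 in the authors' table and -0.03 without both arrays, and -0.14 to 0.12 leaving out 1 array. At attachment sites leaving out 1 array gave -0.29 to 0.02, and for the change of the site difference from day 13 to 18 it gave -0.41 to 0.02. The cause of these changes was not tested.

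Counts of called probes moved more. Slide as a block called 0 probes for day 13 attachment sites over non-pregnant sows, 392 for day 24 over day 18 at attachment sites and 1 at inter-sites. Normexp called 26, 207 and 6, against 536, 1691 and 43 as reported, and it moved the median of all probes to -0.26 in the first and to 0.26 in the second. The replicate block, on numbers that may or may not pair the samples (same-numbered arrays correlated at -0.11 to 0.49), called 580, 1785 and 19. It left the MUC20 difference at -2.86 for day 13 attachment sites over non-pregnant sows, no longer past the threshold. Leaving out 1 of the 21 arrays gave 0 to 1303, 261 to 2029 and 5 to 125 called probes. For day 18 over day 13 at attachment sites it gave 9 (without day 18 replicate 1) to 3728 (without day 18 replicate 3), and for day 24 over day 13 there 2094 to 5228, against 541 and 4712 as reported. Signal lay 2.35 to 3.92 times over background at the median, which limits dim probes such as MMP1 more than the members.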

Other observations

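Among 2017 other named genes, those whose levels were most like those of MUC20 over the 21 arrays included PDZK1IP1 (r = 0.943), HSD11B1 (0.930), MTFR2 (0.926) and PAQR8 (0.910). PDZK1IP1 is a small membrane protein of epithelia, HSD11B1 an enzyme that regenerates active glucocorticoid, and PAQR8 a membrane progestin receptor. They were chosen by this likeness, so it is a description with no p. Taken as deviations from the group means, r was 0.835 for PDZK1IP1, 0.786 for HSD11B1, 0.831 for MTFR2 and 0.719 for PAQR8, against -0.03 for BSG. HSD11B1 averaged 2.26 at day 13 attachment sites, against 4.50 in non-pregnant sows. MTFR2 was not well above background on most arrays of days 13 and 18. The 3 genes least like MUC20 were ACSS2 (-0.901), CBR2 (-0.894) and GZMB (-0.888).

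For BSG the 5 most alike were ABHD5 (0.911), GNG12 (0.910), ATP5A1 (0.903), ARF3 (0.893) and TKT (0.891), none of which was on the list for MUC20. ABHD5 is a co-activator of triglyceride breakdown, ATP5A1 a subunit of mitochondrial ATP synthase and TKT the transketolase of the pentose phosphate pathway. The least alike were DDO (-0.858), GZMB (-0.855) and OGT (-0.838). GZMB, the granzyme of cytotoxic lymphocytes, stood at the far end for both genes. It averaged 0.35 at day 24 attachment sites, against 2.02 on day 18.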
